A study of Mus musculus with 24 samples.

Results

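The 67 clustered histone genes of the mouse were taken as the protein-coding genes whose RefSeq symbol begins with H1f, H2ac, H2bc, H3c or H4c and ends in digits only, out of 21631 protein-coding genes on the 19 autosomes and the X chromosome. Chromosome 13 holds 53 of them, between position 21715711 and position 23934913 of the mm10 build, and chromosome 3 holds 10, between 96219885 and 96270192. The other members are linker histone genes, with 2 on chromosome 6 (H1f10 and H1f8) and 2 on chromosome 15 (H1f0 and H1f7). By product, 10 members encode linker histone H1, 17 encode H2A, 16 encode H2B, 12 encode H3 and 12 encode H4.

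Histones H2A, H2B, H3 and H4 form the core of the nucleosome, and H1 binds the linker DNA between nucleosomes. Most of these genes are transcribed in S phase, when new DNA has to be packed, from many short copies without introns whose transcripts end in a stem-loop in place of a poly(A) tail. The product of the H3 genes carries lysine 4, whose trimethylated form (H3K4me3) marks active gene starts. Part of that methylation is made by the SET1 complexes, of which CFP1, the product of Cxxc1, is the subunit that binds unmethylated CpG DNA.

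Group 3 innate lymphoid cells (ILC3s) are lymphocytes of mucosal tissue. They had been sorted from mouse small intestine into CCR6+, NKp46+ and DN cells, the last named DN in the labels, and profiled by CUT&Tag, which cuts and tags DNA with a transposase tethered to an antibody. Both genotypes carried floxed Cxxc1 alleles. The control genotype, here WT, was Cxxc1flox/flox without Cre, and the knockout genotype, here KO, carried the same alleles with a Cre. That Cre is not limited to ILC3s, so other cells of the KO animals may carry the deletion too. Age is labelled as 6 to 8 weeks for all samples, while the protocol text speaks of aged and young mice, and it gives 100000 cells per library in a passage on H3K4me3. Each combination of 2 genotypes, 3 subsets and 2 antibodies had 2 libraries, giving 24 in all. Whether replicates or subsets came from separate animals is not labelled, so the p-values reflect the spread between libraries, which could be technical only.

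One peak list was deposited per library, without read totals, so sequencing depth is unknown and the absence of a peak means that none was called in that library. CFP1 lists held 4574 to 7983 peaks in WT libraries. In KO they held 714, 1131, 1250 and 1312 peaks in 4 libraries, 4891 in NKp46+ replicate 2 and 8881 in DN replicate 2, which is above every WT list. The last 2 libraries stand apart from the other KO libraries, and CFP1 counts per library are given with and without them, an alternative chosen after seeing the data. H3K4me3 lists held 11794 to 18127 peaks. Of 12 genes fixed as ILC3 markers, 9 had an H3K4me3 peak in at least 1 library, with a mean of 7.33 ± 1.21 (SD, n = 6) per WT library and 5.0 ± 0.63 (SD, n = 6) per KO library, and Il22, Rora and Gata3 had none. All 6 T cell markers had H3K4me3 in at least 1 library, with a mean of 4.67 ± 1.51 (SD, n = 6) per WT library and 3.33 ± 1.75 (SD, n = 6) per KO library. Of 5 markers each, 1 of B cells, 4 of myeloid cells and 3 of epithelial cells had H3K4me3 in at least 1 library, and the epithelial marker Epcam had it in all 12. The subset marker Ccr6 had it in 4 WT and 0 KO libraries and the T cell marker Cd8b1 in 5 WT libraries and 1 KO library. The part of other cell types in the values below was not tested.

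Promoter sequences of 62 of the 67 genes were found in the RefSeq table of the build GRCm38.p6, which shares its coordinates with mm10. The promoters below, 250 bases ending just before the annotated start and written 5′ to 3′ on the gene's strand, are those on which the results turn. The first 2 had CFP1 in all 6 WT libraries and H3K4me3 in all 12, and capitals mark their CpG dinucleotides. H4c1 (chr13:23761250-23761499, minus strand) holds 27 CpGs and H3c6 (chr13:23562386-23562635, minus strand) holds 14.
H4c1: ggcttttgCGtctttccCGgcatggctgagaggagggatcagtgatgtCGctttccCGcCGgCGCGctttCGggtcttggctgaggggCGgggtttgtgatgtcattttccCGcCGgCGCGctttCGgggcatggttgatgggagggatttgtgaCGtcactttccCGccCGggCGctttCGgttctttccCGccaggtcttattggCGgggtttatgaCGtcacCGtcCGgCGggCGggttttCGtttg
H3c6: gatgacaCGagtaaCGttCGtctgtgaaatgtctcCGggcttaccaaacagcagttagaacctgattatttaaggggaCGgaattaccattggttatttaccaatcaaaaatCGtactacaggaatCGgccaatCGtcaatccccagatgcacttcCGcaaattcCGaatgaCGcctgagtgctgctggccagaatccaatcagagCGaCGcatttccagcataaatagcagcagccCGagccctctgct

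The next 3 promoters show the short elements that histone genes share. Capitals mark the letters of the TATA box (TATAAA), the CCAAT box (read as ATTGG where it lies on the other strand) and the octamer (ATTTGCAT, or ATGCAAAT on the other strand), wherever they lie. H2ac6 (chr13:23683960-23684209, minus strand) had CFP1 in all 6 WT libraries. H3c3 (chr13:23745522-23745771, minus strand) and H2bc3 (chr13:23746484-23746733, plus strand) share 1 CFP1 site, called in 5 WT and 0 KO libraries. H3c3 has 6 CpGs in these 250 bases and H2bc3 has 2. The median summit of their CFP1 site lay outside these bases, at -867 b from the start of H3c3 and -346 b from that of H2bc3.
H2ac6: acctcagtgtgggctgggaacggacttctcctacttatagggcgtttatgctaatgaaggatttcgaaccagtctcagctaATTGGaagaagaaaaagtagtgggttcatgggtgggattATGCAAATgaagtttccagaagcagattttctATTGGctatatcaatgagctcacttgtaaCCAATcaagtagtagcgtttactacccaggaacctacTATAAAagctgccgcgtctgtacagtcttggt
H3c3: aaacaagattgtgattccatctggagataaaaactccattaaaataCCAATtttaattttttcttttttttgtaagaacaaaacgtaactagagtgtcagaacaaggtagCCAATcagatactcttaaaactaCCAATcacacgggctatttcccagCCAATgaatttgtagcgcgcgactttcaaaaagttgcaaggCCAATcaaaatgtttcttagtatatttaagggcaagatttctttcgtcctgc
H2bc3: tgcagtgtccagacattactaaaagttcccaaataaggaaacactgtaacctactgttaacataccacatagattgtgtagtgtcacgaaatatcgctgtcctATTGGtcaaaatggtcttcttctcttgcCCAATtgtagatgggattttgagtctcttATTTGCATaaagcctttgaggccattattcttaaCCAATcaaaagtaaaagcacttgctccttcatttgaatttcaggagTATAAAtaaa

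H4c4 (chr13:23581318-23581567, plus strand) is shown because its H3K4me3 peak was called in 5 WT and 0 KO libraries. Capitals mark the same elements.
H4c4: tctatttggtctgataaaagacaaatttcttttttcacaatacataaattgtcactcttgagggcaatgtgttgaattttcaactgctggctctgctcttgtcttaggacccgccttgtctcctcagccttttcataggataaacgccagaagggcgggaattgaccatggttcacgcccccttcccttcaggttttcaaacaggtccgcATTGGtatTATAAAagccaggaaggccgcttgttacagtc

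The last 4 promoters had no peak of either antibody in any library, and capitals mark their CpGs. H2ac18 (chr3:96245247-96245496, plus strand) and H2ac19 (chr3:96240375-96240624, minus strand) are transcribed away from each other and hold 34 and 29 CpGs, more than any other printed here. H4c17 (chr13:21811496-21811745, plus strand) and H4c18 (chr13:21832198-21832447, minus strand) are a near-identical pair.
H2ac18: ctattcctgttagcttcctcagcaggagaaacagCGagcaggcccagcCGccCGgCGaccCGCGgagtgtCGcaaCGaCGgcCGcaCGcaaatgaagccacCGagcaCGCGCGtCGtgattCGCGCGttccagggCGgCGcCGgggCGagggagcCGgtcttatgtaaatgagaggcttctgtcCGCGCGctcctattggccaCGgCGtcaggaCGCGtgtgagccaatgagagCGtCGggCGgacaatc
H2ac19: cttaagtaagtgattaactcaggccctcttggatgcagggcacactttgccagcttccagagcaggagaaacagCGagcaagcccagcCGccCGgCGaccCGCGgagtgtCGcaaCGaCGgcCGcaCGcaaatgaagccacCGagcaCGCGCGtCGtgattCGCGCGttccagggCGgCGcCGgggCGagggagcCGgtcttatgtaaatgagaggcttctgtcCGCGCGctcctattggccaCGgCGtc
H4c17: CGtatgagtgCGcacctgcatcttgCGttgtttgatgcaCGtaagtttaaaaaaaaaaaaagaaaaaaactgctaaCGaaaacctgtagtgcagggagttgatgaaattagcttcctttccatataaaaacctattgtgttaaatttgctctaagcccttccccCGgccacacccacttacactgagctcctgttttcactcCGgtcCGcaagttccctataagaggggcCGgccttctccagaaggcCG
H4c18: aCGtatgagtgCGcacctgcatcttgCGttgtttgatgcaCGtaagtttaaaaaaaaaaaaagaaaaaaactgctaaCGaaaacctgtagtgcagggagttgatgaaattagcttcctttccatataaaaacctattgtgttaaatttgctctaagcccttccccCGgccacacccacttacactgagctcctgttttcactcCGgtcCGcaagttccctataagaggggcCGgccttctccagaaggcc

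Over the 300 bases of the table (250 before the start and 50 after it), many histone promoters held the letters of elements known from histone genes. The letters were counted wherever they lay, and promoters of back-to-back genes overlap, so a motif can count for both genes. TATAAA on either strand was found in 54.0% of the 63 histone promoters, against 12.7% of the 21045 promoters of protein-coding genes. Its place varied: the first on the gene's strand lay at -32 b from the start in H2ac6, -10 b in H2bc3 and -128 b in H4c17. CCAAT on either strand was found in 82.5% against 38.5%, and in every H2A, H2B and H3 promoter but in 27.3% of H4 promoters. The octamer, the core of the known H2B promoter element, was found in 46.7% of H2B and 35.3% of H2A promoters and in 0% of H1, H3 and H4 promoters, against 1.68% of all promoters. CpG content was modest, with a median of 11 per histone promoter against 13 over all promoters. The extremes were 3 and 41.

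A gene was counted as holding a peak when a called peak overlapped the 1000 b on either side of its start or its end. By this measure the histone genes fell into 3 sets. H3K4me3 was present in all 12 libraries at 29 members (43.3%), in 1 to 11 libraries at 9 and in none at 29 (43.3%). These shares are close to those of all protein-coding genes, of which 42.8% had the mark in all 12 libraries and 44.7% in none. The number of marked members ranged from 29 to 36 per library. Genes without a called H3K4me3 peak in any library are named unmarked below, although a peak not called is not shown to be absent.

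**Figure D1:**
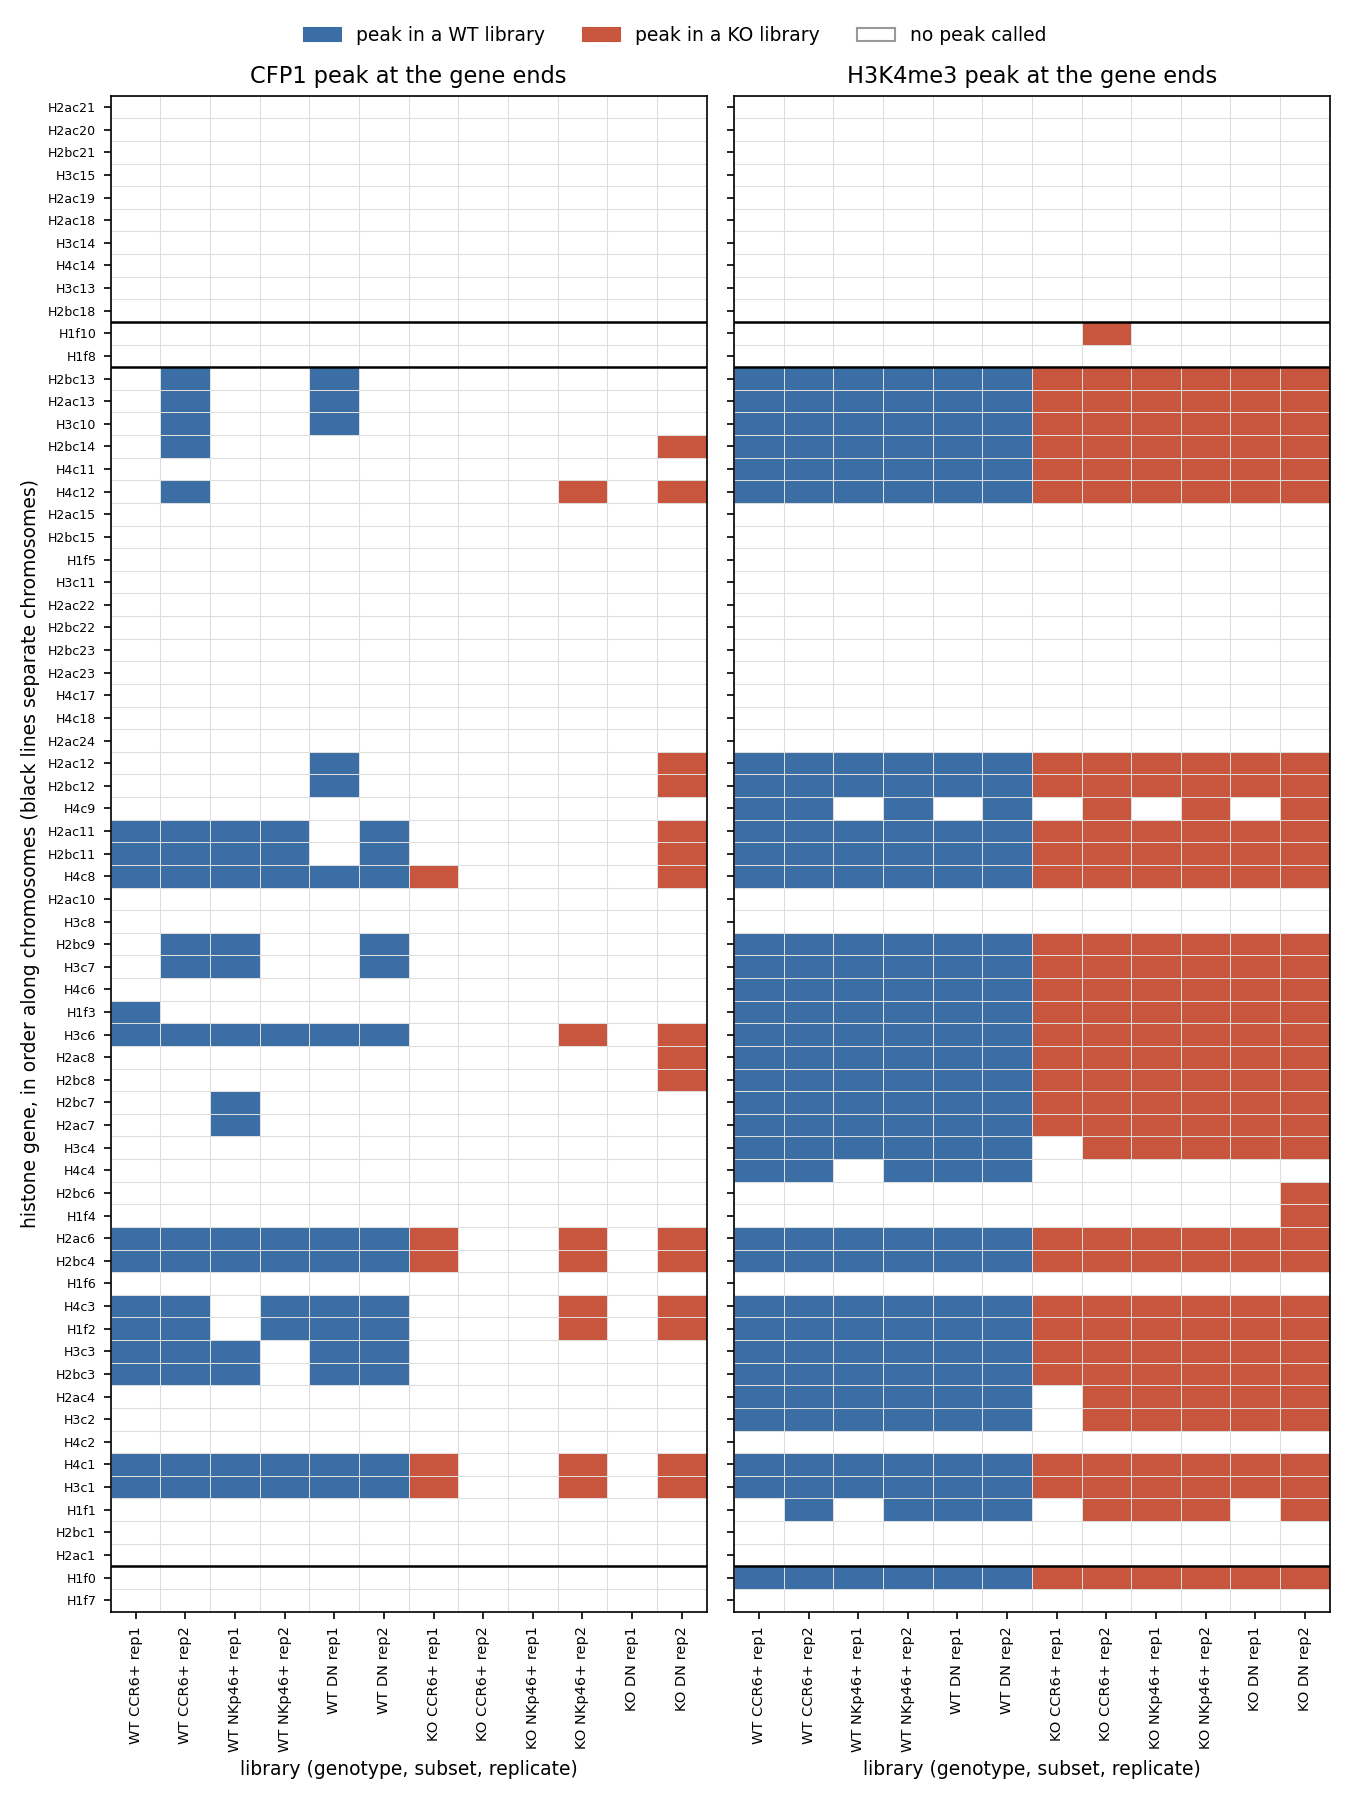
Presence of a called CFP1 peak (left) and H3K4me3 peak (right) at the ends of each of the 67 histone genes (rows, in order along chromosomes 3, 6, 13 and 15) in each library (columns); filled squares are called peaks, blue in WT and red in KO. H3K4me3 forms unbroken rows at 29 genes and empty runs at the 10 genes of chromosome 3 and at 11 neighbours on chromosome 13, while CFP1 squares are mostly blue.

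Every family had both marked and unmarked copies. Among linker genes, H3K4me3 was in all 12 libraries at 3 of 10 (H1f0, H1f2 and H1f3). Among core histone genes, it was in all 12 libraries at 6 of 17 H2A genes (H2ac6, H2ac7, H2ac8, H2ac11, H2ac12 and H2ac13) and at 9 of 16 H2B genes (H2bc3, H2bc4, H2bc7, H2bc8, H2bc9, H2bc11, H2bc12, H2bc13 and H2bc14). The same held for 5 of 12 H3 genes (H3c1, H3c3, H3c6, H3c7 and H3c10) and 6 of 12 H4 genes (H4c1, H4c3, H4c6, H4c8, H4c11 and H4c12). The highest-ranked marked members were H3c6 and H4c12. The H3K4me3 peak of H3c6 had a median fold enrichment of 11.2 in WT (range 9.93 to 13.67) and 10.8 in KO (9.39 to 11.45). That of H4c12 had 11.1 in WT (7.35 to 12.89) and 11.2 in KO (8.61 to 12.85). Fold enrichment is the authors' value within 1 list, and the ranges of the genotypes overlapped at both genes.

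The unmarked genes lay together. All 10 members on chromosome 3 (H2ac18 to H2ac21, H2bc18, H2bc21, H3c13 to H3c15 and H4c14) had no peak of either antibody in any of the 24 libraries, and no peak at all was called over 105424 b around them, from 96194936 to 96300361. The neighbouring genes Bola1 and Fcgr1, also in that stretch, had none either. On chromosome 13 a run of 11 members (H2ac15, H2bc15, H1f5, H3c11, H2ac22, H2bc22, H2bc23, H2ac23, H4c17, H4c18 and H2ac24) lay in a peak-free stretch of 131249 b, between 21750898 and 21882148. Its left edge is the H3K4me3 peak of H4c12, which was present in all 12 libraries. Also without a peak of either antibody were H2ac10, H3c8 and H4c2 and the germline-associated genes H1f6, H1f7, H1f8, H2ac1 and H2bc1, which encode the linker and core histones of testis and oocyte.

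Many unmarked promoters have near-identical copies. Of the 27 promoters without H3K4me3 in the table, 9 share an unbroken identical run of at least 50 b with another member's promoter on either strand. The run was 285 b for H4c17 and H4c18, 231 b for H3c14 and H3c15, 219 b for H2ac18 and H2ac19, and 233 b for H2bc23 and H2ac24. Among the marked promoters, only H4c11 and H4c12 reached 50 b, with a run of 72 b. Reads from identical sequence cannot be placed, and how the authors treated such reads is not given in the sources used here, so the values of the near-identical copies are uncertain. The other 18 unmarked promoters had shorter runs, and the part of read placement in the empty stretches was not tested.

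Because histone genes lie close to each other, members shared peaks. The 38 members with H3K4me3 rested on 27 merged peak sites, of which 13 served 2 or 3 members, and the 26 members with CFP1 rested on 16 sites, of which 9 were shared. Among the 62 genes with a promoter in the RefSeq table, an H2A and an H2B gene start back to back in 9 pairs, with 163 to 280 b between the starts. Both genes of a pair had peaks in the same number of libraries for each antibody. Genes without such an entry, among them H2bc4 beside H2ac6 and H2bc21 beside H2ac20, could not be paired. H3K4me3 was in all 12 libraries at 5 of these pairs: H2bc13 with H2ac13, H2ac12 with H2bc12, H2ac11 with H2bc11, H2ac8 with H2bc8 and H2bc7 with H2ac7. Values of members that share a site are therefore 1 measurement, not 2.

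CFP1 peaks were found at 26 members in at least 1 library, and every one of them carried H3K4me3 in all 12 libraries. Over all genes that share was 94.9% of the 7439 genes with CFP1. Turned around, 26 of the 29 members with constant H3K4me3 (89.7%) had CFP1 in at least 1 library, against 76.3% of such genes overall. The 3 exceptions were H4c11, H4c6 and H1f0. The median CFP1 summit lay 76 b downstream of the start (quartiles -349 and 192 b) and the median H3K4me3 summit 81.5 b downstream (quartiles -368 and 195 b). Among peaks at members, 62.4% for CFP1 and 82.3% for H3K4me3 covered the start itself. A shared peak was counted for each of its members, so the medians mix positions on both sides of the start.

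CFP1 was present in all 6 WT libraries at 6 members, 8.96% of the members against 11.3% of all genes. For H4, these were H4c8 and H4c1. The CFP1 peak of H4c8 had a median fold enrichment of 5.84 in WT (range 4.4 to 6.72), and it was also called in KO CCR6+ replicate 1 and KO DN replicate 2, at 5.65 and 6.19. H4c1 shares its site with the H3 gene H3c1, and their peak reached the highest WT enrichment of these sites, with a median of 6.5 (4.87 to 8.21) against 4.17, 4.58 and 5.26 in the 3 KO libraries that had it. The WT and KO ranges overlap at both sites, and a library without a called peak has no value here.

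Among H3 genes, H3c6 was called in all 6 WT libraries (median fold enrichment 5.85, range 5.29 to 7.59) and in the 2 KO libraries NKp46+ replicate 2 and DN replicate 2 (3.79 and 5.35). The H2A gene H2ac6 and the H2B gene H2bc4 share a site that was called in 6 WT libraries (median 6.24, 5.24 to 7.12) and 3 KO libraries (median 4.4, 4.15 to 6.79). H4c3 and the linker gene H1f2, at separate sites, were each called in 5 WT and 2 KO libraries, and the same libraries held both. H1f2 encodes the linker histone H1.2 and had the widest of these peaks after H4c1, with a median of 1235 b over its 7 libraries.

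The site between H3c3 and H2bc3, which encode an H3 and an H2B, was called in every WT library except NKp46+ replicate 2 and in no KO library. Its fold enrichment in those 5 libraries was 4.11 to 6.38 with a median of 5.73. Presence at H3c3 and H2bc3 had an unadjusted p of 0.0152 by Fisher's exact test and an adjusted p of 0.202, which did not pass the threshold of 0.05. The 2 genes are 1 site, which lies nearer to H2bc3: with windows of 500 b it was counted in 5 WT libraries at H2bc3 but in 2 at H3c3 (adjusted p = 0.643, Fisher's exact test). H2ac11 and H2bc11 were called in 5 WT libraries and 1 KO library (DN replicate 2), with an adjusted p of 0.297 by Fisher's exact test. H2bc9 and H3c7, also 1 site, were called in 3 WT libraries and no KO library (adjusted p = 0.43, Fisher's exact test).

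In numbers of genes, CFP1 was found at fewer members in KO than in WT libraries, with wide spread among KO libraries. In WT, the CCR6+ libraries held 13 and 19 members, replicate 1 before replicate 2, the NKp46+ libraries 14 and 10, and the DN libraries 15 and 14. In KO, the CCR6+ libraries held 5 and 0, the NKp46+ libraries 0 and 8, and the DN libraries 0 and 16. The mean was 14.2 ± 2.93 (SD, n = 6) in WT and 4.83 ± 6.40 (SD, n = 6) in KO, and the groups overlap only through KO DN replicate 2. Within replicate 1 the means were 14.0 and 1.67 (n = 3 each), and within replicate 2 they were 14.3 and 8.00 (n = 3 each). Without the 2 KO libraries that stand apart, the KO mean was 1.25 ± 2.5 (SD, n = 4).

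**Figure D2:**
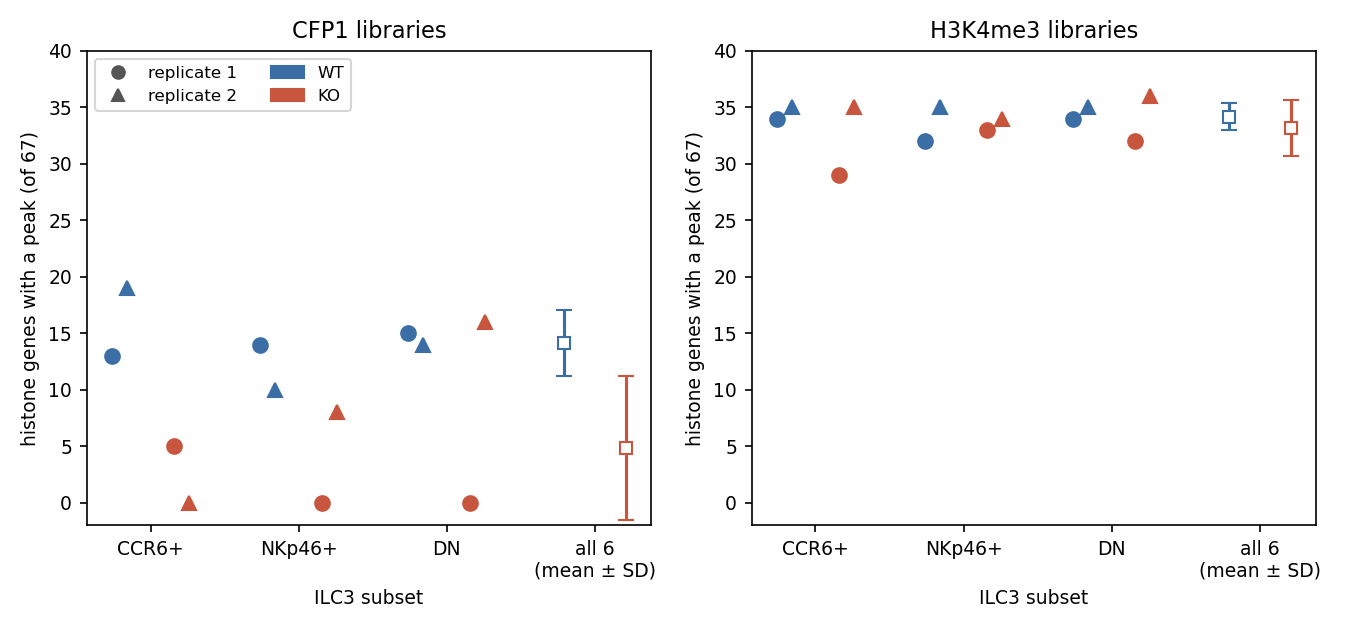
Number of the 67 histone genes with a called CFP1 peak (left) or H3K4me3 peak (right) in each library, by subset; circles are replicate 1, triangles replicate 2, blue WT, red KO, and open squares with bars are means ± SD over 6 libraries. CFP1 counts are 10 to 19 in WT and 0 to 16 in KO, and H3K4me3 counts are 29 to 36 in both genotypes together.

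The same share over all genes was lower in KO too. CFP1 was at 21.1% of histone genes per WT library and at 7.21% per KO library on average, and at 21.6% ± 2.28 and 9.4% ± 7.83 of all protein-coding genes (SD, n = 6 each). Without the 2 KO libraries that stand apart, the KO means were 1.87% of histone genes and 4.79% of all genes. Per WT library, CFP1 was at 3.00 ± 0.63 H4, 3.67 ± 1.03 H3, 2.50 ± 0.55 H2A, 4.0 ± 1.41 H2B and 1.00 ± 0.63 H1 genes (SD, n = 6). Per KO library it was at 1.5 ± 1.76 H4, 0.83 ± 0.98 H3, 1.00 ± 1.55 H2A, 1.17 ± 1.94 H2B and 0.33 ± 0.52 H1 genes (SD, n = 6), and without the same 2 libraries at 0.5 H4, 0.25 H3, 0.25 H2A, 0.25 H2B and 0 H1 genes (means, n = 4). Of the 26 members with any CFP1, 20 had it in fewer KO than WT libraries, 3 in equal numbers (H2bc14, H2ac12 and H2bc12) and 3 in more (H4c12, H2ac8 and H2bc8). Over all protein-coding genes, 7439 had any CFP1: 6403 in fewer KO than WT libraries, 633 in equal numbers and 403 in more. Fewer KO libraries was thus the common direction over all genes and not particular to the members. H4c12 was called in 1 WT and 2 KO libraries, and the shared site of H2ac8 and H2bc8 in KO DN replicate 2 alone. Every KO peak at these 6 members came from KO DN or KO NKp46+ of replicate 2. Without those 2 libraries, 24 members had CFP1, all 24 in a lower share of KO than of WT libraries. The only KO library left with any was CCR6+ replicate 1, at H4c8, H2ac6, H2bc4, H4c1 and H3c1. The 2 libraries left out held the most members of the KO libraries (8 and 16), so this direction was largely set by leaving them out. The same count over all genes was not made. Sites called in few WT libraries and in no KO library were that of H2bc13, H2ac13 and H3c10, called in 2 WT libraries (CCR6+ replicate 2 and DN replicate 1), that of H1f3 in WT CCR6+ replicate 1 and that of H2bc7 and H2ac7 in WT NKp46+ replicate 1.

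Tested gene by gene, no loss at a single histone gene passed adjustment. Of 5741 genes with CFP1 in 2 to 10 libraries, 0 (0%) had an adjusted p under 0.05 by Fisher's exact test, and the smallest was 0.202. The smallest unadjusted p that 6 against 6 libraries can give in this test is 0.00216. It was reached by 56 genes, none of them a member, and they did not pass either. Even a complete loss at a single histone gene would therefore not have passed. An unadjusted p under 0.05 in the direction of fewer KO libraries was found at 431 genes (7.51%) and at 2 of the 21 members tested, H3c3 and H2bc3, which are 1 site (1 member, H2bc3, with windows of 500 b). With KO DN replicate 2 left out, 267 of all 21631 protein-coding genes, tested or not, and 0 of the 67 members passed. With the pair of KO libraries that stand apart left out, 747 of the 21631 genes passed, and H3c6 was the only one of the 67 members among them. That pair held the only KO peaks of H3c6, so leaving it out set H3c6 to 6 WT and 0 KO libraries.

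**Figure D3:**
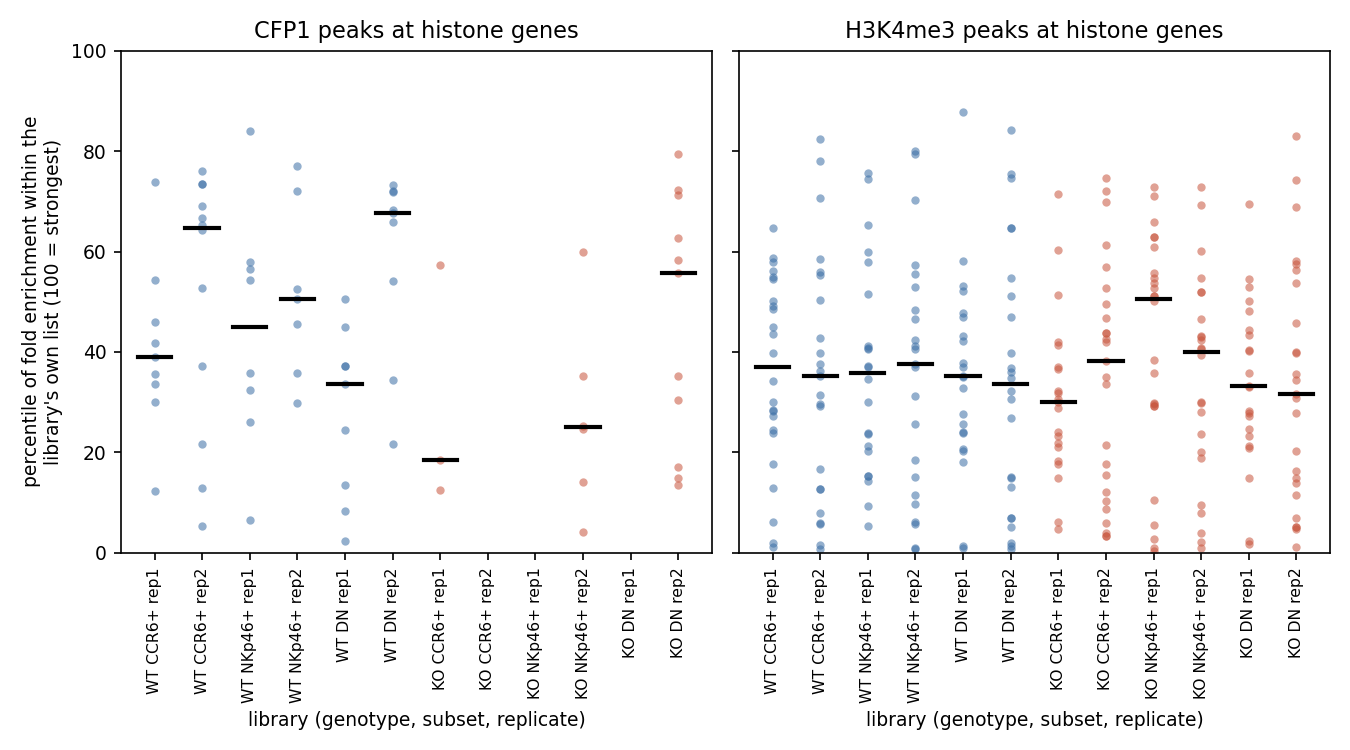
Strength of every peak at a histone gene, as the percentile of its fold enrichment within its own library's list (y axis, 100 is the strongest peak), for CFP1 (left) and H3K4me3 (right); points are peaks and black bars medians. CFP1 medians are 33.6 to 67.7 in WT libraries and 18.4, 24.9 and 55.8 in the 3 KO libraries with any peak, and percentiles of lists of different length are not a change in level.

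H3K4me3 at the histone genes differed little between genotypes. The WT libraries had the mark at 34 and 35 members in the CCR6+ subset, replicate 1 first, at 32 and 35 in the NKp46+ and at 34 and 35 in the DN subset. In the same order, the KO libraries had it at 29 and 35, 33 and 34, and 32 and 36. The means were 34.2 ± 1.17 and 33.2 ± 2.48 (SD, n = 6 each), and the ranges overlapped. With the summit required inside the window both means were 30.5, and when peaks below a fold enrichment of 5 were dropped KO was higher (27.8 against 27.2). Of 1877 genes with the mark in 2 to 10 libraries, 0 (0%) had an adjusted p under 0.05 by Fisher's exact test. The smallest unadjusted p that 6 against 6 libraries can give, 0.00216, had an adjusted p of 0.769 in this test. Even a mark lost in all KO libraries would therefore not have passed. An unadjusted p under 0.05 was found in the direction of fewer KO libraries at 15 genes (0.799%) and of more KO libraries at 20 (1.07%).

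H3K4me3 was called in only some libraries at 9 members. H4c4, an H4 gene, had a peak in 5 WT libraries (all but NKp46+ replicate 1) and in no KO library, an unadjusted p of 0.0152 and an adjusted p of 0.769 by Fisher's exact test. Its peaks had fold enrichments of 3.16, 2.12, 2.02, 3.07 and 2.70 and were among the weakest of their lists, with percentiles of 0.7 to 1.9. H4c4 was the only one of the 3 members tested whose unadjusted p was under 0.05. H4c9, another H4 gene, had a peak in 4 WT and 3 KO libraries, and those were all 6 libraries of replicate 2 and 1 library of replicate 1 (WT CCR6+). H1f1, a linker gene, had 4 WT and 4 KO libraries, again with all 6 of replicate 2. In WT DN replicate 1 its window held only the peak of the neighbours H4c1 and H3c1, and the site at H1f1 itself was called in 3 WT and 4 KO libraries.

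H3c4, an H3 gene, lies beside the paired genes H2bc7 and H2ac7, and its window caught their peak. It was counted in 6 WT and 5 KO libraries, but a separate weak peak over its own start was called in 1 WT (CCR6+ replicate 1) and 5 KO libraries (all but CCR6+ replicate 1). With windows of 500 b, the difference at H3c4 accordingly turned to 4 more KO than WT libraries, with an adjusted p of 0.888 by Fisher's exact test. This peak was singled out after its values were seen. H2ac4 and H3c2 were both counted in all libraries except KO CCR6+ replicate 1, the library with the shortest H3K4me3 list. Their shared peak was called in 6 WT and 4 KO libraries, and in KO DN replicate 1 a separate peak over the start of H3c2 was called instead.

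H1f10, H1f4 and H2bc6 had the mark in 1 library each. H1f10, a linker variant whose promoter holds 40 CpGs, had it in KO CCR6+ replicate 2, and H1f4 and H2bc6 shared a peak in KO DN replicate 2. H2bc6 has a second annotated start inside its long gene model, outside the windows used here. With the whole gene counted, H2bc6 had H3K4me3 in 6 WT and 6 KO libraries and CFP1 in 2 WT libraries and 1 KO library, and it was the only member whose counts changed in this way.

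At members marked in every library, the summed width of the H3K4me3 peaks (breadth) was compared with limma, after each library's median over the 9253 such genes was subtracted. No histone gene passed: 7 of 9253 genes (0.0757%) and 0 of 29 members had an adjusted p under 0.05, and the smallest among members was 0.472. An unadjusted p under 0.05 was found in the direction of narrower KO peaks at 5.38% of genes and 1 member (H1f0), and of wider KO peaks at 3.64% of genes and 1 member (H2ac7). These fits left out the replicate number, although same-numbered WT and KO libraries varied together. With the replicate number as a block, 36 of 9253 genes and 0 of 29 members passed. The smallest adjusted p among members was then 0.0773 by limma. The members' median difference, KO minus WT, was 0.03 on the log2 scale, against 0.00 over all genes, with 6 of 29 members below 0 against 48.2% of genes. Without subtraction of the library medians the members' median was -0.04 and that of all genes -0.07, with 21 of 29 members (72.4%) and 77.2% of genes below 0. The sign of the members' median therefore depends on that step, and members that share a site are not separate measurements.

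**Figure D4:**
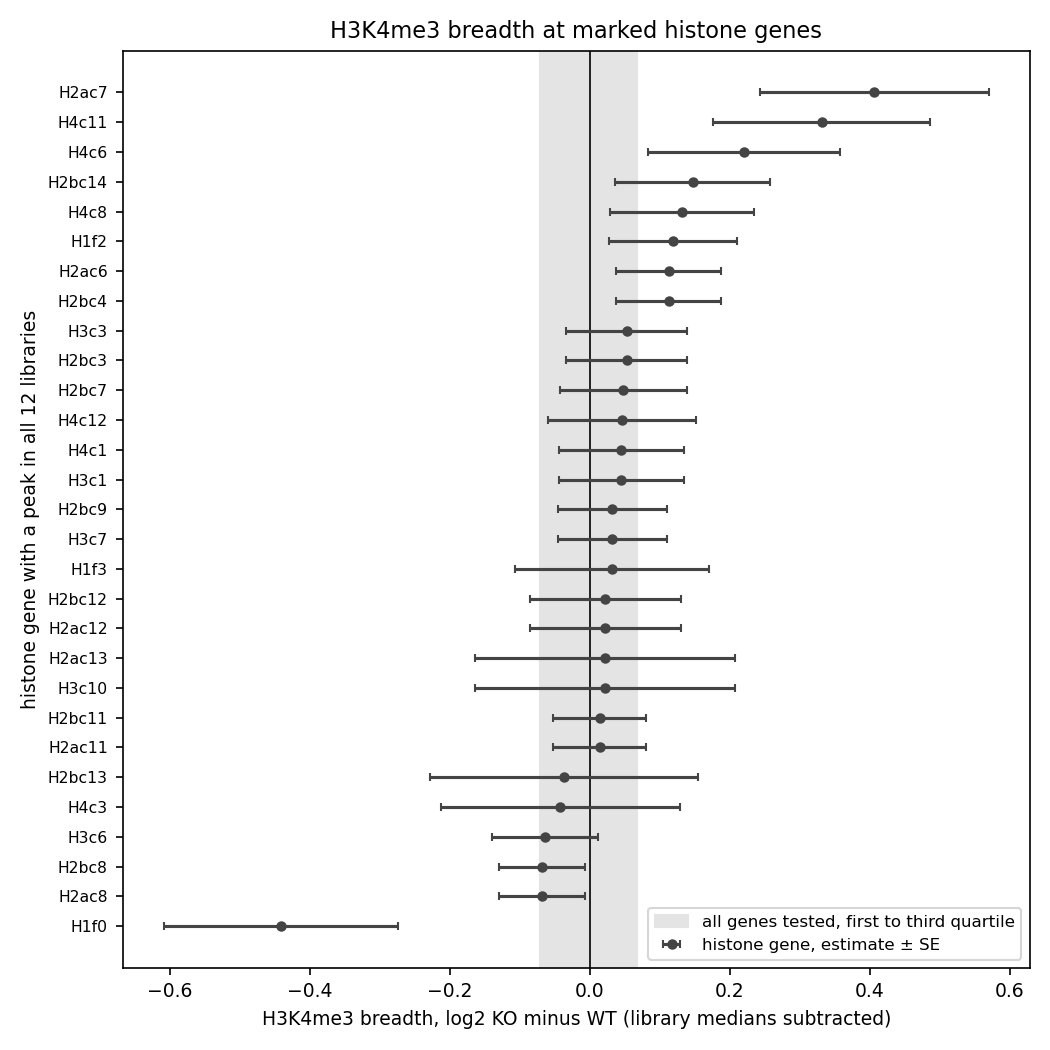
Difference in H3K4me3 breadth between KO and WT for the 29 histone genes marked in all 12 libraries, as log2 KO minus WT with library medians subtracted (x axis); points are limma estimates, bars ± SE, and the grey band is the interquartile range of all genes tested. H1f0 lies lowest at -0.44 and H2ac7 highest at 0.41, and the other members lie between -0.07 and 0.33.

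The largest differences were at H1f0 and H2ac7. H1f0 encodes a linker histone known for resting and differentiated cells. Its breadth was 1819, 3390, 1286, 3404, 1562 and 2950 b in the WT libraries (CCR6+, NKp46+ and DN, replicate 1 before replicate 2) and 1256, 2211, 1475, 1873, 1005 and 1895 b in KO in the same order. The difference was -0.44 ± 0.17 (log2, SE; adjusted p = 0.472 by limma), and KO was narrower than its numbered WT partner in 5 of 6 pairs. The values of WT and KO overlapped. H1f0 had 2 peaks in 10 libraries, one at its start and one towards the neighbouring gene Gcat, and they were joined into 1 peak in WT CCR6+ and WT NKp46+ of replicate 2, the widest values. Blocking on the replicate number gave H1f0 an adjusted p of 0.0773 by limma, and 36 genes but 0 members passed.

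H2ac7 was wider in KO by 0.41 ± 0.16 (log2, SE; adjusted p = 0.499 by limma), with a median of 943.5 b in WT (range 489 to 1090) and 1208.5 b in KO (range 543 to 1427). Its partner H2bc7 starts from the same divergent promoter and differed by 0.05 ± 0.09. The windows of H2ac7, but not those of H2bc7, reach the weak peak over the start of H3c4. H4c11 (0.33 ± 0.16), H4c6 (0.22 ± 0.14) and H2bc14 (0.15 ± 0.11) followed, and none passed the test.

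No difference between the 3 ILC3 subsets at a histone gene passed the tests. For presence of H3K4me3, 0 of 1877 genes (0%) had an adjusted p under 0.05 by Fisher's exact test in any subset against the others. An unadjusted p under 0.05 was found at 0.959% of genes for CCR6+, 0.639% for NKp46+ and 0.746% for DN and at 0 of the 3 members tested, whose smallest p was 0.547. For breadth, 0 of 9253 genes (0%) passed in each subset by limma, and the members' differences ran from -0.16 to 0.19 for CCR6+, from -0.27 to 0.08 for NKp46+ and from -0.19 to 0.16 for DN cells on the log2 scale. A p above the threshold does not show that the subsets do not differ, and 4 against 8 libraries limit how small a Fisher p can be.

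The marked histone genes with more and with less CFP1 had the same median CpG content. Among members with H3K4me3 in all 12 libraries, the median was 10.5 CpGs per 300 b promoter both where CFP1 was in 5 or 6 WT libraries (10 promoters) and where it was in 0 to 4 (16 promoters). Over all genes of the same classes the medians were 25 and 20. H2bc3, with CFP1 in 5 WT libraries, had 3 CpGs in its promoter, and H2ac6, with CFP1 in all 6, also had few (6). H4c1, in contrast, had 27. At the other end, unmarked histone promoters had a median of 12 CpGs against 4 for all unmarked genes, and H2ac18 and H2ac19 had 41 and 36. The window runs from 250 b before the start to 50 b after it, and CpGs outside it were not counted. At H2bc3, 0 of 5 CFP1 peaks covered the start, and the median summit lay at -346 b, outside the window. At H2ac6, 9 of 9 covered the start, with the median summit at 153 b, also outside it. The counts are therefore not those under the CFP1 peaks.

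**Figure D5:**
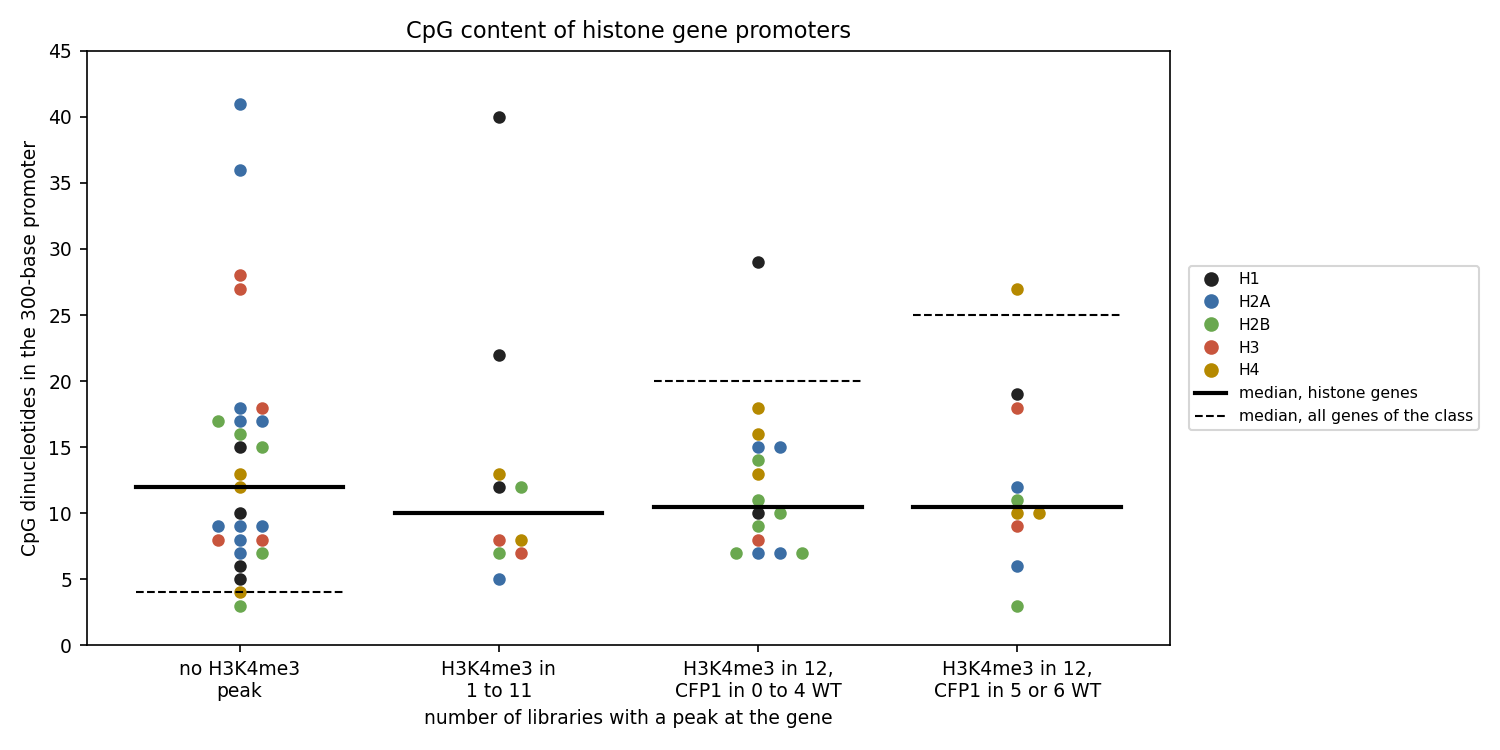
CpG dinucleotides in the 300-base promoter (y axis) of 63 histone promoters, grouped by the number of libraries with H3K4me3 and CFP1 peaks and coloured by histone family; solid lines are medians of histone promoters and dashed lines medians of all genes in the class. Histone promoters with constant H3K4me3 have a median of 10.5 in both CFP1 classes, below the medians of 20 and 25 of all genes.

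Genes that act on histones were read beside the histone genes. Of 25 genes for histone gene transcription and mRNA processing, 24 had H3K4me3 in all 12 libraries, and CFP1 was at 15.8 ± 2.56 of them per WT library and 8.33 ± 5.32 per KO library (SD, n = 6 each), or 5.5 without the 2 KO libraries that stand apart. Slbp, which encodes the protein that binds the histone mRNA stem-loop, had CFP1 in 6 of 6 WT and 6 of 6 KO libraries. Npat, the coactivator of histone gene transcription that gathers at histone gene clusters, had it in 6 WT and 2 KO libraries (adjusted p = 0.28, Fisher's exact test), the same counts as H4c8 and H3c6. The cyclin gene Ccne2 also had 6 and 2 libraries, and Cpsf3 and E2f1 had 5 and 1. Casp8ap2, Zfp473, Fip1l1 and Ccne1 had 6 and 3, Cpsf2 had 5 and 2, and Ncbp1, Nfyb and Eri1 had 4 and 1. In this list 0 genes passed adjustment by Fisher's exact test and 0 had an unadjusted p under 0.05.

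Of 17 histone chaperone genes, 16 had H3K4me3 in all 12 libraries, and CFP1 was at 12.5 ± 0.55 per WT and 6.5 ± 3.39 per KO library (SD, n = 6 each), or 4.75 without those 2 libraries. Asf1a, Asf1b, Nasp and Rbbp7, which carry newly made histones or belong to their assembly complexes, had CFP1 in 6 WT and 2 KO libraries. Nap1l1 had it in 4 and 0, Ssrp1 in 5 and 1, and Hat1 in 5 and 2. Among 24 DNA replication genes, CFP1 was at 7.67 ± 1.03 per WT and 5.17 ± 3.19 per KO library (SD, n = 6 each), or 3.5 without those 2 libraries, and Cdc45 (6 and 3) and Fen1 (4 and 1) differed by 3 libraries. None of these genes passed by Fisher's exact test, and 0 of either list had an unadjusted p under 0.05.

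Of the 10 replication-independent histone variants, which supply histones outside S phase, 6 had H3K4me3 in all 12 libraries. H2az2 had CFP1 in all 12 libraries and H2az1 in 11, more than any clustered histone gene, none of which exceeded 9. H3f3a, one of the genes for H3.3, had CFP1 in 6 WT and 2 KO libraries. At H3f3b and H2ax no peak of either antibody was called in any library. The same held for Nfyc, Rrm2 and Orc1 of the lists above. Why no peak was called at these genes was not tested, and the mark is not shown to be absent there. The 31 protein-coding neighbours within 50000 b of a member had CFP1 at 4.33 ± 1.21 per WT and 1.33 ± 1.37 per KO library (SD, n = 6 each), or 0.5 without those 2 libraries. Mtmr11 and Sf3b4, beside the empty block of chromosome 3, had H3K4me3 in all 12 libraries and CFP1 in 3 WT and 0 KO libraries, and Hmces (6 and 2) and Ankrd54 (6 and 3) differed as well. None of the variants or neighbours passed adjustment or had an unadjusted p under 0.05 by Fisher's exact test.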

How the data were processed

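Peaks of 24 CUT&Tag libraries were analysed, grouped by the sample titles. The submitters' processing notes name the build mm10 and, without roles, MACS2 2.2.7.1, Bowtie2 2.3.5.1, fastp 0.19.7, ChIPseeker 1.28.3 and Picard. Settings, the treatment of duplicates and of reads with several matches, and any control library: not given in the sources used here. Each library has a narrowPeak list deposited by the authors, with the fold enrichment (a ratio) and the −log10 p-value and q-value of each peak. The smallest deposited −log10 q per list was 1.30 to 1.42. Depth is unknown, and list length and peak width can both grow with it.

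The members and lists were chosen with earlier results of these data known. Gene positions came from the RefSeq table of GRCm38.p6. Presence was the overlap of a peak by 1 b or more with 1000 b on either side of either gene end. Genes present in 2 to 10 of 12 libraries were tested with two-sided Fisher's exact tests, and log2 breadth with limma 3.58.1 (R 4.3.3, covariate subset), each adjusted over all genes tested (Benjamini-Hochberg, threshold 0.05). Python 3.11.15, pandas 2.3.3 and SciPy 1.17.1 were used. Both tests were tested on simulated data. For presence, the simulation gave a complete loss in KO to many more genes than show one here. It therefore does not show that the Fisher's exact test could find such a loss in these data. Replicate numbers paired the libraries for breadth, since deviations from the group means of same-numbered WT and KO libraries correlated in every subset. The r was 0.26, 0.39 and 0.41 in CCR6+, NKp46+ and DN cells over 9253 genes, which are not independent. For presence, r was lower: 0.04, 0.18 and 0.20 for CFP1 and 0.05, -0.01 and 0.17 for H3K4me3, in the same order. A weaker pairing for presence is therefore not excluded. The main tests of presence and breadth left the pairing out, and only the alternatives with a replicate block took it in.

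Every member was accounted for. One item is not reported here. Values are given for members with CFP1 in 6 WT libraries, for the 6 with the largest difference per antibody, for those with H3K4me3 in 1 to 11 libraries, for the 5 with the largest breadth difference and for list genes that differ by 3 or more libraries. Alternatives were windows of 500 b, whole genes, transcription starts (added later), summits, fold enrichment of 5 or more, no filter on the number of libraries, no centring, clipped peaks, a replicate block and leaving out each library.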

Additional observations from a re-analysis of the deposited data

Results flagged for a closer look

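In groups of 6 libraries, 4 values stood far from the others of their group, among 14 groups looked at. Chance alone flags about 1 in 20 groups that are independent and not picked by their values. The flagged breadths, not centred on library medians, belong to members picked for a large breadth difference between genotypes. More than 1 flag also came from the same library. The chance rate therefore does not apply to 4 of 14, and whether the flags exceed chance was not tested. WT NKp46+ replicate 1, which also had the shortest WT H3K4me3 list, had H3K4me3 at 32 histone genes against 34 or 35 in the other WT libraries. The same library had the narrowest H3K4me3 peaks of the WT libraries at the H4 genes H4c11 (521 b) and H4c6 (303 b). KO CCR6+ replicate 1, with the shortest H3K4me3 list of all, had the narrowest KO peak at the H2B gene H2bc14 (630 b).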

How the results depend on the processing

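With 1 exception named next, no histone gene passed adjustment for presence or breadth under any alternative run. The number of all genes that passed for CFP1 presence rose from 0 to 267 without KO DN replicate 2 (range 0 to 267 over libraries left out in turn), and to 747, with 1 histone gene (H3c6), without KO DN and KO NKp46+ of replicate 2, an alternative chosen after seeing the data. The only KO peaks of H3c6 were in those 2 libraries. For breadth, 7 genes became 0 without centring, 0 with fold enrichment of 5 or more, 36 with the replicate block and 0 to 10 with libraries left out in turn. In CCR6+ cells against the others the range was 0 to 1. The H3K4me3 difference, WT minus KO libraries, turned from 1 to -4 at H3c4 with windows of 500 b and with summits inside the window, from 1 to -1 at H3c2 with windows of 500 b, and from 1 to -1 at H4c9 with fold enrichment of 5 or more, where the 1 KO library left was counted through the peak of H2ac11 and H2bc11. Leaving out 1 library moved the mean difference in CFP1-bound histone genes between 8.37 and 11.6, and that in H3K4me3 between 0.17 and 1.57. The replicate block changed no call at a histone gene. Depth is unknown, so an uncalled peak is not shown to be absent.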
